A study of Homo sapiens with 6 samples.

Results

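The genes described are those that build the ribosome's RNA and assemble it with protein in the nucleolus: the subunits and initiation factors of RNA polymerase I, and the factors that modify, cleave and package its transcript. The list holds 50 gene symbols, matched exactly to the gene names of the deposited count tables, and all 50 were among the 27754 genes there. Each passed the filter on low counts, so that all 50 were among the 15657 genes tested. The cells were T47D, an established line of luminal-like human breast cancer cells, kept in adherent culture in RPMI medium with serum. In 1 group the cells were in 0.5% O2 for 48 h (hypoxia), and in the other they were in ordinary culture at 20% O2 (normoxia), with 3 libraries of stranded, polyadenylated RNA in each. The oxygen level and time are those of the library labels, and the text of the study names another oxygen level for these T47D cells. Replicates are numbered 1, 2 and 3 in each group, and nothing in the labels says whether they came from separate cultures. The methods of the study call the hypoxia and normoxia samples paired, and its figure legend describes its data as independent experiments. The main test left pairing out, and an alternative fit took the replicate number as a block. The p-values measure the spread between these libraries.

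In the nucleolus, RNA polymerase I transcribes the repeated ribosomal DNA into a long precursor that carries the RNAs of both ribosomal subunits. UBTF and the TATA-binding protein complex SL1 bring the polymerase, with its partner RRN3, to the promoter. Small nucleolar RNPs (snoRNPs) then guide the methylation of riboses and the formation of pseudouridines in the precursor. A very large particle, the small subunit processome, cleaves out the RNA of the small subunit, and other sets of factors mature the large subunit. The load on this pathway follows growth: the factor MYC, which binds the sequence CACGTG, is known to drive many of its genes, and mTOR is known to promote both RNA polymerase I activity and the translation of ribosomal proteins.

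The libraries held 32989104 to 89883409 counts assigned to genes, of which replicate 3 of hypoxia was the deepest. Levels are given as CPM, the counts of a gene per 1000000 counts of its library after TMM scaling. Every hypoxia library held a hypoxia response, with 21.1, 21.4 and 31.5 CPM of CA9, a carbonic anhydrase known to respond to low oxygen, against 0.937, 0.699 and 0.194 CPM in normoxia. All 8 luminal markers checked (ESR1, PGR, GATA3, FOXA1, KRT8, KRT18, KRT19 and EPCAM) were detected. Their summed level, most of it from the keratins, was 13211 to 17516 CPM in normoxia and 9370.1 to 12756 CPM in hypoxia. The mean of ESR1 went from 271 CPM in normoxia to 74.6 CPM in hypoxia, and that of PGR from 1249 to 164 CPM. The means of GATA3, FOXA1, KRT8 and KRT18 were also lower in hypoxia, while those of KRT19 and EPCAM were nearly level. For the 6 basal or mesenchymal markers the summed level was 94.1 to 119 CPM in normoxia and 91.6 to 132 CPM in hypoxia, and all 6 had counts. VIM stood at 7, 12, 35 and 35 counts in replicates 1 and 2 of normoxia and then of hypoxia and at 395 and 1001 counts in replicate 3 of normoxia and of hypoxia. PTPRC, which defines leukocytes, had 0 counts in every normoxia library and at most 5 in any hypoxia library. The part of other cells in the results was not tested.

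Most of the ribosome biogenesis genes were lower in hypoxia, by a modest amount, and a few were higher. Of the 50 genes, 32 fell and 4 rose at an adjusted p under 0.05 in edgeR's quasi-likelihood test, and 14 did not pass. Among all 15657 genes tested, 59.5% were called, 29.1% lower and 30.4% higher, against 64.0% and 8% of the 50. The median log2 fold change (hypoxia over normoxia) was -0.37, beside 0.028 over all genes, and the values ran from -1.23 for RRS1 to 0.90 for TAF1D. In 33 genes all 3 hypoxia libraries were below all 3 normoxia libraries (32.4% of all genes), and in 4 they were above (34.9% of all genes). Within each same-numbered pair of libraries, 39 genes were lower in hypoxia in all 3 pairs (40.1% of all genes). Summed over the 50 genes, the level came to 8154, 7401 and 8861 CPM in the normoxia libraries, against 6916, 6975 and 6509.5 CPM in those of hypoxia, so each hypoxia library was below each normoxia library. The plot of every gene in every library shows this shift.

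**Figure D1:**
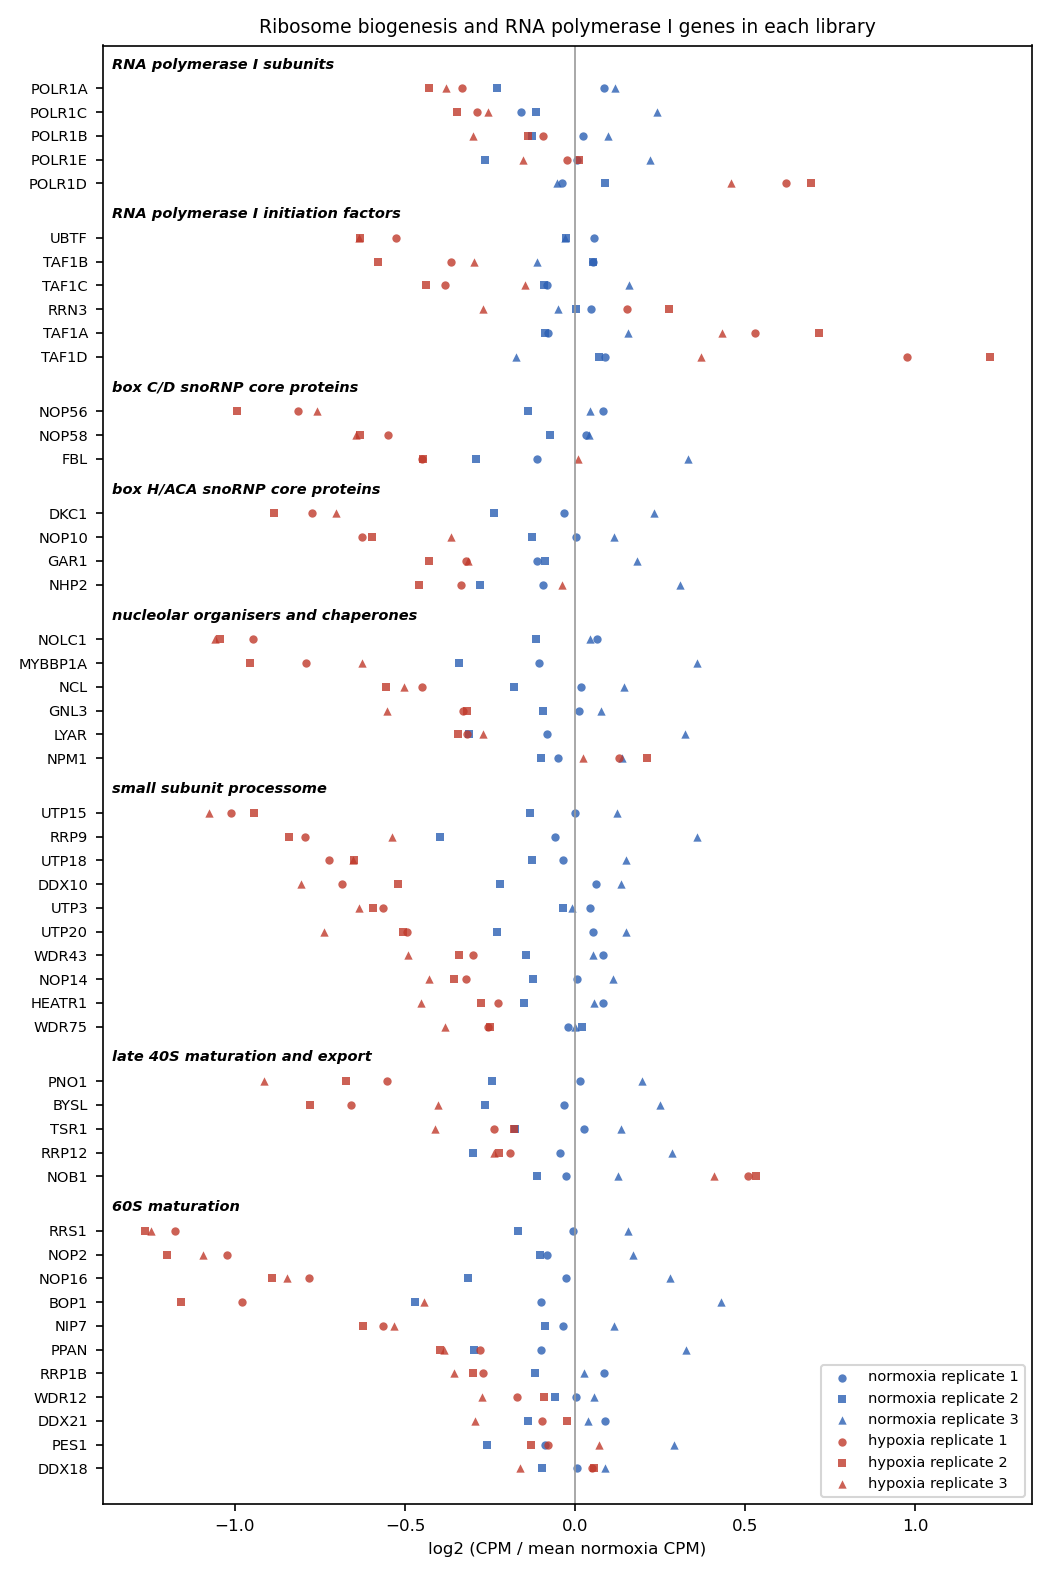
Level of each of the 50 genes in each of the 6 libraries, as log2 of its CPM over its mean CPM in normoxia (horizontal axis), with genes grouped by role; blue marks are normoxia, red marks hypoxia, and the shape gives the replicate number. In 33 genes all red marks lie left of all blue marks, and in 4 (POLR1D, TAF1A, TAF1D and NOB1) they lie right of them.

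These values are relative to the other polyadenylated RNA of the same library, and in such bulk samples fewer cells of a type and less RNA per cell cannot be told apart. The scaling sets where 0 lies. With upper-quartile factors the log2 fold changes of all genes rose by a median of 0.16, and with library totals alone by 0.11. With upper-quartile factors, 21 of the 50 genes were called lower and 5 higher, where 21.0% and 38.1% of all genes were. The median of the 50 was then -0.21, beside 0.19 over all genes, so that the distance between the medians stayed close to that under TMM while the number of calls fell. Of the 32 genes that fell under TMM, 21 were called lower under each of the 3 other scalings, and all 4 that rose were called higher. The calls of POLR1A, TAF1B, TAF1C, GAR1, GNL3, NOP14, WDR43, WDR75, HEATR1, TSR1 and RRP1B ended with upper-quartile factors, at adjusted p between 0.0508 and 0.360, and NPM1 was then called higher.

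**Figure D2:**
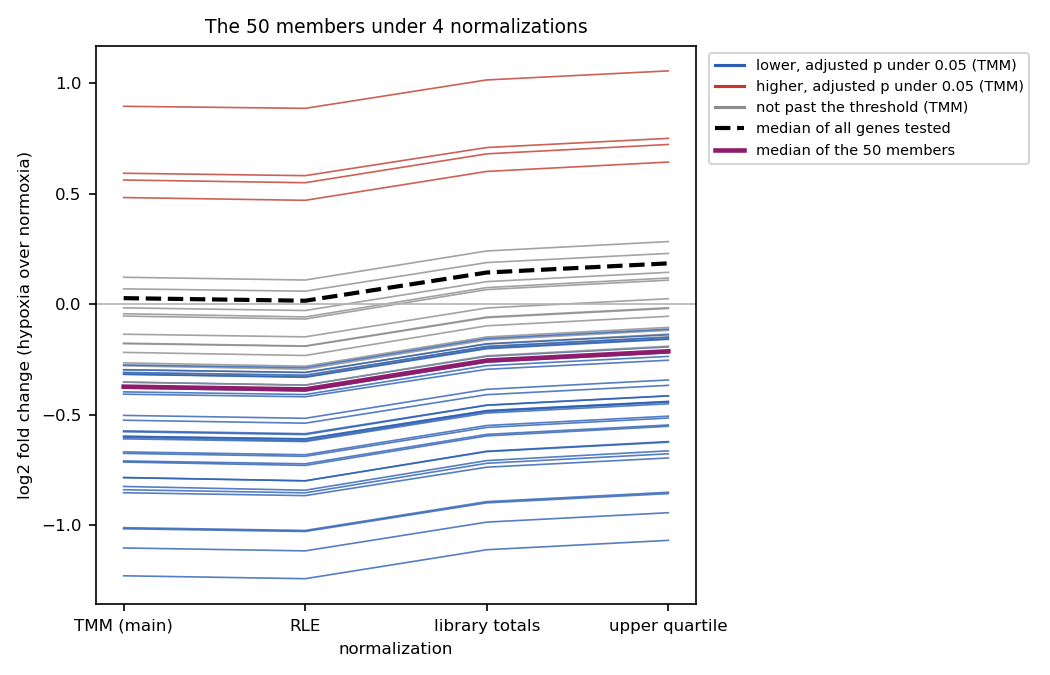
Log2 fold change (hypoxia over normoxia, vertical axis) of each of the 50 genes under 4 normalizations (horizontal axis), coloured by its call under TMM, with the median of the 50 genes (thick purple line) and of all genes tested (dashed black line). All lines rise together by about 0.16 from TMM to upper-quartile factors, and the median of the 50 stays below 0 in each.

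The promoters of the genes were searched for short motifs, because so many of these genes are known MYC targets. RefSeq promoters of GRCh38.p14 (250 bases before to 50 bases after each start, 300 in all) matched 42 of the 50 genes by symbol, all but POLR1E, NOP58, NOLC1, RRP12, BOP1, DDX18, RRS1 and RRP1B. CACGTG, which reads the same on both strands, was in 16 of these 42 (38.1%), in 7.26% of all 35116 promoters of the table, and in 12.2% of the 11350 tested genes with a promoter there. Of the 16 genes with it, 12 fell in hypoxia and none of the genes that rose is among them, whereas 15 of the 26 without it fell. The median log2 fold change was -0.46 with the motif and -0.32 without it. Over all tested genes with a promoter, 34.4% of those with CACGTG and 31.1% of those without it were called lower. The shorter ACGTG, the core bound by HIF and part of CACGTG on both strands, was in 23 of the 42 (54.8%, against 31.6% of tested genes with a promoter and 21.4% of all promoters), with median log2 fold changes of -0.38 with it and -0.32 without it. CCGGAAG, the core bound by ETS factors, searched on both strands, was in 18 (42.9%, against 20.9% of tested genes with a promoter and 10.3% of all promoters), with medians of -0.33 and -0.39. These counts are descriptions, and a match is not a bound site.

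The 250 bases before the start are printed for UTP18 (chr17:51260296-51260545, + strand) and NOP10 (chr15:34343137-34343386, - strand), the genes lower in hypoxia with the smallest p among those with CACGTG before the start, and for NOB1 (chr16:69754927-69755176, - strand), a gene that rose and has a single start in the table. All are 5′ to 3′ on the strand of the gene, in GRCh38.p14, with CACGTG and ACGTG in capitals.
UTP18: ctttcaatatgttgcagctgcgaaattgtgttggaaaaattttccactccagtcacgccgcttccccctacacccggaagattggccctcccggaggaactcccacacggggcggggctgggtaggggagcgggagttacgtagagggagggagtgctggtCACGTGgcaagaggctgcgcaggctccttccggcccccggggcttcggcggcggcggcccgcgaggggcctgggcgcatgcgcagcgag
NOP10: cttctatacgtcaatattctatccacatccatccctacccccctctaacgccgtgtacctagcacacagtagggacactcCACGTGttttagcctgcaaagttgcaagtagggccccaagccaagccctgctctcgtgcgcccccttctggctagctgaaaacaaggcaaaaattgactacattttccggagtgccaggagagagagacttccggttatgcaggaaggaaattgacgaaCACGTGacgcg
NOB1: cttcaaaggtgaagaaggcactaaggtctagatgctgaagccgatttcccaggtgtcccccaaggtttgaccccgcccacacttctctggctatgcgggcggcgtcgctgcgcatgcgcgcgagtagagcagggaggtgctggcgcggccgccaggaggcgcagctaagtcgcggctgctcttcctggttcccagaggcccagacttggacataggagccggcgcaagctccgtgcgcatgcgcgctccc
The printed bases of UTP18 hold CACGTG once and those of NOP10 hold it at a distal and a proximal place, while the printed bases of NOB1 hold neither motif on either strand. A further CACGTG of UTP18 and the ACGTG counted for NOB1 lie after the start. NOB1 does not stand for all genes that rose. TAF1D holds ACGTG before its start, on the opposite strand at positions -143 and -99, while POLR1D and TAF1A hold neither motif.

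Of the 5 subunits of RNA polymerase I on the list, POLR1A fell, POLR1D rose and 3 did not pass. That is 20.0% each way, below the 29.1% and 30.4% of all genes called lower and higher. The subunits had a median log2 fold change of -0.18 that was -0.015 with upper-quartile factors. POLR1D, a small subunit shared with RNA polymerase III (chromosome 13, 28194880 to 28241559 in hg19, as for the coordinates that follow), was at 70.0, 76.3 and 69.2 CPM in normoxia (replicates 1, 2 and 3 in turn), against 110.3, 116 and 98.6 CPM in hypoxia. Every hypoxia library was above every normoxia library, and the gene rose (log2 fold change 0.59, standard error 0.088, adjusted p = 9.27e-04). POLR1A, the largest subunit and part of the catalytic centre (chromosome 2, 86251569 to 86333278), was at 59.7, 48.0 and 61.1 CPM in normoxia against 44.7, 41.8 and 43.3 CPM in hypoxia, with no overlap between the groups, and fell (log2 fold change -0.38, standard error 0.11, adjusted p = 0.0154). This call ended without normoxia replicate 1 (adjusted p = 0.0626) and without hypoxia replicate 2 (adjusted p = 0.0524). POLR1C, the partner of POLR1D in the assembly of both polymerases, was at 35.3, 36.4 and 46.7 CPM in normoxia against 32.3, 31.1 and 33.1 CPM in hypoxia and did not pass (log2 fold change -0.30, standard error 0.12, adjusted p = 0.0589), although its groups did not overlap. It passed with the replicate number as a block (adjusted p = 0.0133) and without normoxia replicate 1 (adjusted p = 0.0495). POLR1B, the second catalytic subunit, whose exons share 174 bases with LOC105373562 on the opposite strand (chromosome 2, 113299492 to 113334729), was at 90.6, 81.6 and 95.2 CPM in normoxia against 83.4, 80.9 and 72.4 CPM in hypoxia (log2 fold change -0.18, standard error 0.092, adjusted p = 0.131). POLR1E, which helps the polymerase to initiate, showed a log2 fold change of -0.053 (95% confidence interval from -0.35 to 0.24), and its sign turned with upper-quartile factors. Per kilobase of exon, the level of these subunits in normoxia ran from 6.61 CPM for POLR1A to 26.7 CPM for POLR1C.

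Among the initiation factors, subunits of the same promoter complex went in opposite directions. Of the 6 factors, 3 fell, 2 rose (33.3%) and 1 did not pass, where 29.1% and 30.4% of all genes were called lower and higher. The share that rose was thus near that of all genes. The median log2 fold change of -0.12 turned to 0.036 with upper-quartile factors. UBTF, the HMG-box protein that coats active ribosomal DNA (chromosome 17, 42282401 to 42298994), was at 192, 181 and 180.3 CPM in normoxia (replicates 1, 2 and 3 in turn), against 128, 119 and 119 CPM in hypoxia. The highest hypoxia library was far below the lowest normoxia library, and UBTF fell by 33.9% (log2 fold change -0.60, standard error 0.071, adjusted p = 3.65e-04). The 4 TAF1 genes encode the subunits of SL1 that sit beside the TATA-binding protein. TAF1D (chromosome 11, 93463360 to 93474703) rose from 119, 118 and 99.5 CPM to 221, 261 and 145 CPM (log2 fold change 0.90, standard error 0.20, adjusted p = 0.00556). Its hypoxia libraries spread widely, with replicate 3 the lowest, but all were above the normoxia libraries. TAF1D also hosts small nucleolar RNAs in its introns, and of its exon bases 6.33% are shared with CEP295 on the opposite strand and 2.01% with SNORA18, whose own log2 fold changes were -0.45 and -0.27.

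TAF1A (chromosome 1, 222731244 to 222763275) was the lowest of the 50 genes per kilobase of exon, at 2.43 CPM, and rose from 5.24, 5.21 and 6.17 CPM to 8.004, 9.10 and 7.47 CPM (log2 fold change 0.56, standard error 0.14, adjusted p = 0.0106). Its call ended without normoxia replicate 1 (adjusted p = 0.0514). It shares 14 exon bases with the antisense gene TAF1A-AS1, which showed a log2 fold change of 1.41. TAF1B (chromosome 2, 9983571 to 10074546) was at 16.7, 16.7 and 14.9 CPM in normoxia against 12.5, 10.8 and 13.1 CPM in hypoxia and fell (log2 fold change -0.41, standard error 0.11, adjusted p = 0.0164). TAF1C (chromosome 16, 84211453 to 84220676) was at 166, 165 and 196 CPM in normoxia against 134, 129 and 158 CPM in hypoxia and fell (log2 fold change -0.32, standard error 0.11, adjusted p = 0.0337), with 74 exon bases shared with DNAAF1 on the opposite strand. In neither gene did the groups overlap. The call of TAF1B ended without normoxia replicate 1 (adjusted p = 0.0548) or hypoxia replicate 2 (adjusted p = 0.0602). The call of TAF1C ended without normoxia replicate 3 (adjusted p = 0.0776) and without hypoxia replicate 1 or 2 (adjusted p = 0.111 and 0.111). RRN3, which couples the polymerase to SL1, was at 147, 142 and 137 CPM in normoxia against 158, 172 and 118 CPM in hypoxia and did not pass (log2 fold change 0.070, standard error 0.13, adjusted p = 0.670). Its hypoxia replicates 1 and 2 were above normoxia and replicate 3 below it, and without hypoxia replicate 3 it was called higher (log2 fold change 0.21, adjusted p = 0.0356). Reads of RRN3 can be shared with its copies, of which RRN3P3 had 181 to 582 counts.

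The core proteins of both snoRNP classes leaned down. Box C/D snoRNPs methylate riboses, and box H/ACA snoRNPs make pseudouridine. Of the 3 box C/D proteins 2 fell, and of the 4 box H/ACA proteins 3 fell, where 29.1% of all genes were called lower. Their medians of -0.61 and -0.44 stayed below 0 under each scaling. NOP56 (chromosome 20, 2633178 to 2639039), a scaffold of the C/D particle, was at 301, 258 and 293 CPM in normoxia (replicates 1, 2 and 3 in turn), against 161, 142 and 168 CPM in hypoxia. It fell by 44.6% (log2 fold change -0.85, standard error 0.095, adjusted p = 2.70e-04). It shares 4 exon bases with IDH3B on the opposite strand and 86 with SNORD86, which had no counts in any library. NOP58 (chromosome 2, 203130439 to 203168384), the other scaffold, went from 166, 154 and 167 CPM to 111, 105 and 104 CPM (log2 fold change -0.61, standard error 0.072, adjusted p = 3.46e-04), again with no overlap. FBL, the methyltransferase itself (fibrillarin, chromosome 19, 40325093 to 40337054), was at 108, 95.2 and 147 CPM in normoxia against 85.4, 85.5 and 117 CPM in hypoxia. Replicate 3 was the highest library of each group, the groups overlapped, and FBL did not pass (log2 fold change -0.28, 95% confidence interval from -0.70 to 0.15, adjusted p = 0.223). Within each same-numbered pair it was lower in hypoxia, and it passed with the replicate number as a block (adjusted p = 0.00329).

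DKC1 (chromosome X, 153991017 to 154005964), the pseudouridine synthase dyskerin, was at 114, 98.6 and 136 CPM in normoxia (replicates 1, 2 and 3 in turn), against 68.1, 62.9 and 71.4 CPM in hypoxia. It had the largest fall of the box H/ACA proteins (log2 fold change -0.78, standard error 0.12, adjusted p = 0.00119), and 2.87% of its exon bases are shared with SNORA36A and 2.85% with SNORA56, both listed at 0 counts in all libraries. NOP10 (chromosome 15, 34633917 to 34635362), a small protein that binds dyskerin and whose promoter is printed above, went from 89.0, 81.3 and 96.1 CPM to 57.5, 58.7 and 68.9 CPM and fell (log2 fold change -0.52, standard error 0.10, adjusted p = 0.00318). GAR1, which helps the particle to release its product, was at 23.7, 24.1 and 29.0 CPM in normoxia against 20.5, 19.0 and 20.6 CPM in hypoxia and fell (log2 fold change -0.35, standard error 0.11, adjusted p = 0.0222). Its call ended without hypoxia replicate 1 (adjusted p = 0.0573) or 2 (adjusted p = 0.0750). NHP2, the other small core protein, was at 119.7, 105 and 158 CPM in normoxia against 101, 92.9 and 124 CPM in hypoxia. Its groups overlapped as those of FBL did, and it did not pass (log2 fold change -0.26, 95% confidence interval from -0.65 to 0.12, adjusted p = 0.201). With the replicate block its adjusted p was 0.00364.

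Among the organisers and chaperones of the nucleolus, NOLC1, NCL, MYBBP1A and GNL3 fell, while NPM1 and LYAR did not pass. Of these 6 genes, 4 fell and none rose at the threshold, where 29.1% and 30.4% of all genes did. Their median log2 fold change of -0.45 stayed below 0 under each scaling. NOLC1 (chromosome 10, 103911933 to 103923628), a phosphoprotein that binds snoRNPs and RNA polymerase I, was at 612, 541 and 605 CPM in normoxia (replicates 1, 2 and 3 in turn), against 304, 284 and 281 CPM in hypoxia. All hypoxia libraries were near 1 level and far below normoxia, a fall of 50.5% (log2 fold change -1.02, standard error 0.081, adjusted p = 8.32e-05), and 4.83% of all tested genes had a lower log2 fold change. NCL (nucleolin, chromosome 2, 232319459 to 232329205), which binds the precursor RNA, went from 858, 749 and 937 CPM to 621, 576 and 598 CPM and fell (log2 fold change -0.50, standard error 0.097, adjusted p = 0.00303). MYBBP1A (chromosome 17, 4442191 to 4458681), a nucleolar repressor and processing factor, was at 106.8, 90.7 and 147 CPM in normoxia against 66.4, 59.2 and 74.5 CPM in hypoxia, with normoxia replicate 3 the highest, and fell (log2 fold change -0.78, standard error 0.18, adjusted p = 0.00610). It shares 142 exon bases with SPNS2 on the opposite strand, which showed a log2 fold change of 1.43. GNL3 (nucleostemin, chromosome 3, 52719936 to 52728510), a GTPase of the nucleolus that shares 11 exon bases with GLT8D1 on the opposite strand, was at 187, 173 and 195 CPM in normoxia against 147, 148 and 126 CPM in hypoxia and fell (log2 fold change -0.40, standard error 0.090, adjusted p = 0.00647).

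NPM1 (nucleophosmin, chromosome 5, 170814708 to 170837888), a histone and ribosome chaperone with many near-identical processed copies in the genome that make its counts uncertain, had the highest level of the 50 genes per kilobase, 1016 CPM in normoxia against 312 CPM for NCL, which came next. It was at 1747, 1686 and 1990.2 CPM in normoxia against 1976, 2092 and 1837 CPM in hypoxia, and its log2 fold change of 0.12 did not pass (95% confidence interval from -0.10 to 0.35, adjusted p = 0.3005). Without both libraries numbered 3 it was called higher (log2 fold change 0.25, adjusted p = 0.00216), as with upper-quartile factors (adjusted p = 0.0318). LYAR, a zinc finger protein of the nucleolus, was at 48.5, 41.4 and 64.3 CPM in normoxia against 41.2, 40.5 and 42.6 CPM in hypoxia and did not pass (log2 fold change -0.31, adjusted p = 0.109), but passed with the replicate block (adjusted p = 0.0296) and without normoxia replicate 2 (adjusted p = 0.0227).

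Of the roles among the 50 genes, the small subunit processome was the only one in which every listed gene fell in the main fit. With the replicate block, all 3 box C/D and all 4 box H/ACA proteins were also called lower, where 35.2% of all genes were. All 10 genes passed, and all 10 had hypoxia libraries below every normoxia library (32.4% of all genes did). Their median log2 fold change was -0.59, or -0.43 with upper-quartile factors. For comparison, 29.1% of all genes were called lower. Of 36 further processome genes outside the 50, 23 fell (63.9%), so the uniform fall is that of the listed genes. The calls of NOP14, WDR43, WDR75 and HEATR1 ended with upper-quartile factors. UTP15 (chromosome 5, 72861566 to 72879202), a WD-repeat protein of the subcomplex that binds the nascent transcript first, was at 47.6, 43.4 and 51.8 CPM in normoxia (replicates 1, 2 and 3 in turn), against 23.6, 24.7 and 22.5 CPM in hypoxia. It fell by 50.4% (log2 fold change -1.01, standard error 0.093, adjusted p = 1.41e-04). UTP3 (chromosome 4, 71554196 to 71556268) had a tight spread, with 58.7, 55.4 and 56.5 CPM in normoxia and 38.4, 37.7 and 36.6 CPM in hypoxia libraries (log2 fold change -0.60, standard error 0.073, adjusted p = 4.00e-04). UTP18, whose promoter is printed above (chromosome 17, 49337897 to 49375292), went from 116, 109.05 and 132 CPM to 72.1, 75.9 and 75.8 CPM (log2 fold change -0.67, standard error 0.089, adjusted p = 5.52e-04). RRP9, which binds the U3 snoRNA, fell from 27.0, 21.3 and 36.0 CPM to 16.2, 15.7 and 19.3 CPM (log2 fold change -0.71, standard error 0.19, adjusted p = 0.0122), with normoxia replicate 3 the highest. The helicase DDX10 and UTP20, a very large scaffold, had log2 fold changes of -0.67 (adjusted p = 0.00208) and -0.58 (adjusted p = 0.00416).

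The other processome genes fell less. WDR43 and WDR75, which like UTP15 belong to the early subcomplex that also promotes transcription by RNA polymerase I, had log2 fold changes of -0.38 (adjusted p = 0.00975) and -0.30 (adjusted p = 0.00899). NOP14 (chromosome 4, 2939664 to 2965233), a scaffold, was at 118, 108 and 127 CPM in normoxia against 94.1, 91.9 and 87.3 CPM in hypoxia and fell (log2 fold change -0.37, standard error 0.084, adjusted p = 0.00633). 10.0% of its exon bases are shared with NOP14-AS1, which showed a log2 fold change of -0.074 (adjusted p = 0.542). HEATR1 (chromosome 1, 236712305 to 236767841), the largest protein of the early subcomplex, was at 177, 150.2 and 173 CPM in normoxia against 143, 138 and 122 CPM in hypoxia and fell (log2 fold change -0.32, standard error 0.095, adjusted p = 0.0212). It has 24.7% of its exon bases shared with LGALS8 on the opposite strand, itself at 0.13 (adjusted p = 0.605). The call of HEATR1 ended without normoxia replicate 1 (adjusted p = 0.0872) or 3 (adjusted p = 0.0521). The strand setting of the counting is not given in the sources used here, so counts of genes that share exon bases with a neighbour are uncertain.

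**Figure D3:**
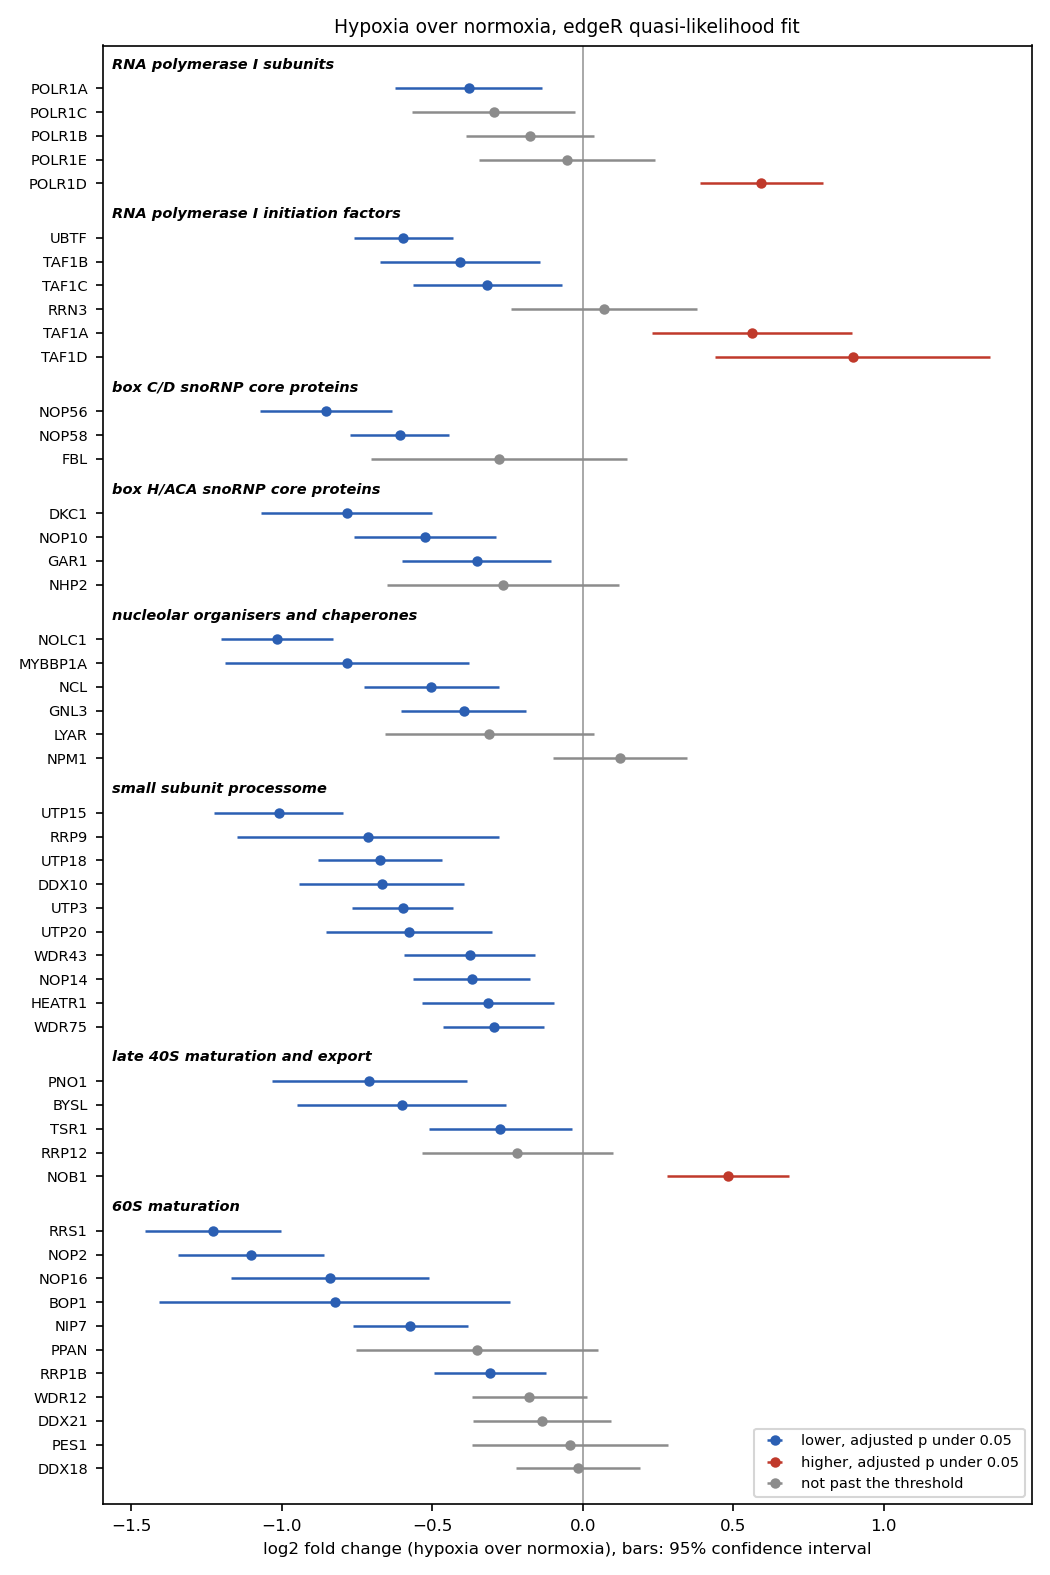
Log2 fold change (hypoxia over normoxia, horizontal axis) of the 50 genes from the fit across all genes with 3 libraries per group; bars are 95% confidence intervals, and colours give the call at an adjusted p under 0.05. All 10 processome genes lie below 0 with intervals that do not reach it, while POLR1D, TAF1A, TAF1D and NOB1 lie above 0.

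Late factors of the small subunit, which act on the pre-ribosome up to its last cleavage in the cytoplasm, included an exception, NOB1. Of these 5 genes, 3 fell, 1 rose and 1 did not pass, where 29.1% and 30.4% of all genes were called lower and higher. Their median log2 fold change was -0.27 (-0.11 with upper-quartile factors). NOB1 (chromosome 16, 69775757 to 69788871), the endonuclease that makes the final cut of the small subunit RNA, was at 58.2, 54.8 and 64.6 CPM in normoxia (replicates 1, 2 and 3 in turn), against 84.3, 85.6 and 78.5 CPM in hypoxia. No library overlapped, and NOB1 rose by 39.8% (log2 fold change 0.48, standard error 0.088, adjusted p = 0.00227). Its call ended without both libraries numbered 1 (adjusted p = 0.0626). PNO1 (chromosome 2, 68384962 to 68403370), its partner, which holds the cleavage site until that cut, went the other way, from 36.0, 30.1 and 40.9 CPM to 24.3, 22.4 and 18.9 CPM (log2 fold change -0.71, standard error 0.14, adjusted p = 0.00335). BYSL (bystin), which joins the late nucleolar particle, fell from 45.3, 38.5 and 55.0 CPM to 29.3, 27.0 and 35.0 CPM (log2 fold change -0.60, standard error 0.15, adjusted p = 0.00980). TSR1 (chromosome 17, 2225982 to 2240678), a GTPase-like factor of the late particle, was at 169, 146 and 182 CPM in normoxia against 140.2, 146 and 124 CPM in hypoxia and lay just inside the threshold (log2 fold change -0.27, standard error 0.10, adjusted p = 0.0493). Its replicate 2 libraries were nearly level. 23.5% of its exon bases are shared with SRR on the opposite strand, which fell with a log2 fold change of -0.85 (adjusted p = 5.45e-04). The call of TSR1 ended without any of 5 libraries, at adjusted p between 0.0573 and 0.137, and remained without normoxia replicate 2. RRP12, an export factor, was at 164, 138 and 207 CPM in normoxia against 149, 145 and 144 CPM in hypoxia and did not pass (log2 fold change -0.22, 95% confidence interval from -0.53 to 0.099), with a low normoxia replicate 2, without which it was called lower (adjusted p = 0.0318).

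The factors of the large subunit held both the deepest falls of all 50 genes and the genes closest to 0. Of 11 genes, 6 fell, none rose at the threshold and 5 did not pass, where 29.1% and 30.4% of all genes were called lower and higher. Their median log2 fold change of -0.35 stayed below 0 under each scaling. RRS1 (chromosome 8, 67341263 to 67342968), which helps to bring the 5S RNP into the early particle, was at 93.9, 83.9 and 105 CPM in normoxia (replicates 1, 2 and 3 in turn), against 41.7, 39.2 and 39.8 CPM in hypoxia. It fell by 57.3% (log2 fold change -1.23, standard error 0.098, adjusted p = 8.32e-05), and only 2.71% of all tested genes had a lower log2 fold change. NOP2 (chromosome 12, 6666036 to 6677498), a cytosine methyltransferase of the large subunit RNA, went from 37.5, 36.9 and 44.6 CPM to 19.5, 17.3 and 18.6 CPM (log2 fold change -1.10, standard error 0.10, adjusted p = 1.57e-04). NOP16 (chromosome 5, 175810940 to 175815928), a protein of the early large subunit particle, at 65.2, 53.4 and 80.5 CPM in normoxia against 38.6, 35.8 and 36.9 CPM in hypoxia, fell (log2 fold change -0.84, standard error 0.14, adjusted p = 0.00167). 28.1% of its exon bases are shared with HIGD2A on the opposite strand, a gene for a mitochondrial protein. HIGD2A showed a log2 fold change of -0.064 (adjusted p = 0.468). NIP7 (chromosome 16, 69373415 to 69377013), an RNA-binding processing factor, fell from 66.1, 63.6 and 73.3 CPM to 45.8, 44.0 and 46.7 CPM (log2 fold change -0.57, standard error 0.083, adjusted p = 8.45e-04), with 4.83% of its exon bases shared with COG8 on the opposite strand, itself at -0.65. RRP1B, a nucleolar partner of protein phosphatase PP1, fell (log2 fold change -0.31, standard error 0.081, adjusted p = 0.0121), and this call ended without normoxia replicate 1 (adjusted p = 0.0614).

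BOP1, PES1 and WDR12 form 1 complex (PeBoW) that is needed for cutting the precursor in the large subunit branch, and of them only BOP1 passed the test. BOP1 was at 87.0, 67.3 and 125 CPM in normoxia (replicates 1, 2 and 3 in turn), against 47.3, 41.8 and 68.5 CPM in hypoxia. Replicate 3 was high in both groups, so that hypoxia replicate 3 lay just above normoxia replicate 2, and BOP1 fell (log2 fold change -0.82, standard error 0.25, adjusted p = 0.0228). The call ended without normoxia replicate 3 (adjusted p = 0.0501) or hypoxia replicate 1 or 2 (adjusted p = 0.0751 and 0.0730). PES1 was at 82.9, 73.5 and 108 CPM in normoxia against 83.4, 80.4 and 92.5 CPM in hypoxia, with a log2 fold change of -0.042 (95% confidence interval from -0.37 to 0.28). WDR12, which shares 9 exon bases with CARF on the opposite strand (chromosome 2, 203745323 to 203776949), was at 45.5, 43.6 and 47.2 CPM in normoxia against 40.3, 42.6 and 37.5 CPM in hypoxia. Its groups did not overlap, and its log2 fold change of -0.18 did not pass (standard error 0.083, 95% confidence interval from -0.37 to 0.013, adjusted p = 0.0959). The helicases DDX18 and DDX21, of which DDX21 is also known to act in RNA polymerase I transcription, had log2 fold changes of -0.016 (95% confidence interval from -0.22 to 0.19) and -0.14 (95% confidence interval from -0.37 to 0.095). The signs of PES1, DDX18 and DDX21 turned with upper-quartile factors. PPAN (chromosome 19, 10216899 to 10222679), an early large subunit factor, was at 8.21, 7.15 and 11.0 CPM in normoxia against 7.24, 6.67 and 6.73 CPM in hypoxia. It did not pass (log2 fold change -0.35, standard error 0.17, adjusted p = 0.115), but was called lower without normoxia replicate 2 (adjusted p = 0.0418). 60.04% of its exon bases belong also to the read-through gene PPAN-P2RY11, which had at most 1 count in any library, so reads in those bases may have been left out and its level is uncertain.

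Ratios of counts between genes whose products work together need no scaling factor, since both counts come from the same library. The 11 pairs were chosen after the values were seen, so these ratios are given as a description without a test. The ratio of NOB1 to PNO1 counts was 1.62, 1.82 and 1.58 in normoxia (replicates 1, 2 and 3 in turn), against 3.47, 3.83 and 4.15 in hypoxia. The ratio of POLR1D to POLR1C was 1.98, 2.09 and 1.48 in normoxia and 3.41, 3.74 and 2.98 in hypoxia. That of TAF1D to TAF1B was 7.13, 7.05 and 6.66 in normoxia and 17.6, 24.2 and 11.1 in hypoxia. In all 3 pairs the balance moved to the first gene in every hypoxia library. TAF1A to TAF1C counts stood at 0.0317, 0.0317 and 0.0315 in normoxia and 0.0595, 0.0703 and 0.0473 in hypoxia, with almost no spread in normoxia. Other balances moved away from the first gene. The ratio of NCL to NPM1 was 0.491, 0.444 and 0.471 in normoxia and 0.314, 0.275 and 0.326 in hypoxia. That of DKC1 to NHP2 was 0.950, 0.939 and 0.863 in normoxia and 0.673, 0.677 and 0.574 in hypoxia. BOP1 to PES1 stood at 1.05, 0.915 and 1.16 in normoxia and 0.568, 0.519 and 0.740 in hypoxia. All hypoxia libraries were below all normoxia libraries in these ratios. The ratio of NOP56 to FBL was 2.79, 2.71 and 2.00 in normoxia and 1.89, 1.67 and 1.43 in hypoxia. For these 8 of 11 pairs the groups did not overlap, while those of NOP58 to FBL, NOP10 to NHP2 and WDR12 to PES1 did.

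**Figure D4:**
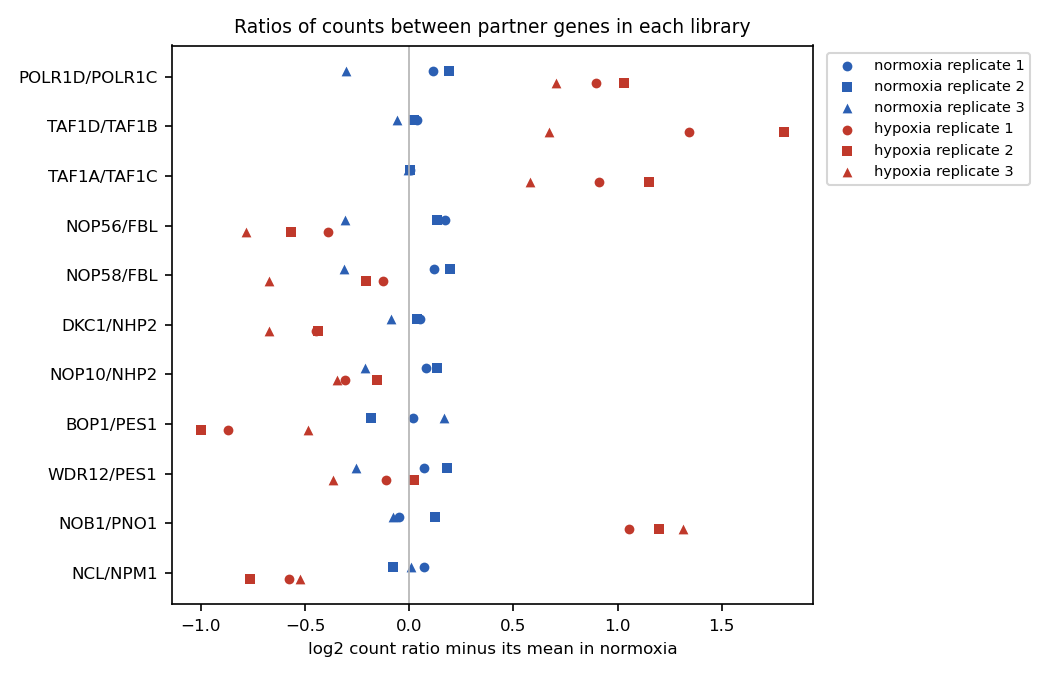
Log2 ratio of raw counts of partner genes in each library, minus its mean over the 3 normoxia libraries (horizontal axis), for 11 pairs; blue marks are normoxia, red marks hypoxia, and the shape gives the replicate number. The NOB1/PNO1 and TAF1D/TAF1B ratios lie to the right in hypoxia, BOP1/PES1 and NCL/NPM1 to the left, and WDR12/PES1 overlaps.

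The other genes of the pathway, a list of 132 that holds none of the 50, were also mostly lower in hypoxia. Of them 78 fell (59.1%), 9 rose (6.82%) and 45 did not pass, with a median log2 fold change of -0.36, where 29.1% and 30.4% of all genes were called lower and higher. By role, 23 of 36 further processome genes fell and 1 rose, 6 of 8 late factors of the small subunit fell and 2 rose, and 25 of 53 large subunit factors fell and 6 rose. In the exosome and RNase MRP, which trim and cut the precursor, 15 of 22 fell and none rose at the threshold. Of the snoRNP assembly and scaffold genes, 7 of 10 fell, and of the other 3 subunits of RNA polymerase I, 2 did. The smallest p among the falls was that of RRP36, which went from 97.8 ± 5.12 CPM (SD, n = 3) to 38.7 ± 1.36 CPM (log2 fold change -1.34, standard error 0.078, adjusted p = 3.94e-05). The helicase DDX52 fell from 109.9 ± 5.66 CPM (SD, n = 3) to 62.0 ± 2.69 CPM (log2 fold change -0.83, standard error 0.077, adjusted p = 1.49e-04). POP4, of RNase MRP, fell from 41.7 ± 2.98 CPM (SD, n = 3) to 24.6 ± 0.816 CPM (log2 fold change -0.76, standard error 0.086, adjusted p = 2.84e-04). Among the rises, the smallest p belonged to the atypical kinase RIOK3, which went from 55.7 ± 2.82 CPM (SD, n = 3) to 122 ± 19.2 CPM (log2 fold change 1.13, standard error 0.12, adjusted p = 2.27e-04). Its relative RIOK1, which acts late in small subunit maturation as NOB1 does, rose from 48.0 ± 3.59 CPM (SD, n = 3) to 80.2 ± 7.54 CPM (log2 fold change 0.74, standard error 0.098, adjusted p = 5.63e-04). RSL24D1 of the large subunit rose from 144 ± 8.68 CPM (SD, n = 3) to 232 ± 25.2 CPM (log2 fold change 0.69, standard error 0.098, adjusted p = 7.63e-04).

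The proteins of the ribosome itself are given for comparison. Of 84 tested genes for cytosolic ribosomal proteins, 6 fell (7.14%) and 25 rose (29.8%). Of all genes 29.1% fell and 30.4% rose, so in this fit the share of these that rose was near the background. With the replicate block, 53 of the 84 were called higher and 8 lower, where 36.6% and 35.2% of all genes were. They had a median log2 fold change of 0.18 (0.34 with upper-quartile factors), against -0.37 (-0.21) for the 50 biogenesis genes. Of 77 tested genes for mitochondrial ribosomal proteins, 73 fell (94.8%) and 1 rose (1.30%), with a median of -0.65 (-0.49). The median of the biogenesis genes lay between those of both lists, and the difference between the lists was not tested. Of the 5 subunits common to RNA polymerases I, II and III, 4 fell (29.1% of all genes did), with POLR2K at -0.92 (adjusted p = 7.50e-05) and POLR2L at -1.54 (adjusted p = 0.00155). Of the 22 own subunits and initiation factors of RNA polymerase III, which makes the 5S RNA, 15 fell (68.2%) and 1 rose (4.55%), against 29.1% and 30.4% of all genes. Across the 50 genes, the level per kilobase in normoxia and the log2 fold change had a Pearson correlation of -0.026 and a Spearman correlation of 0.026, over genes that share the same 6 libraries.

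**Figure D5:**
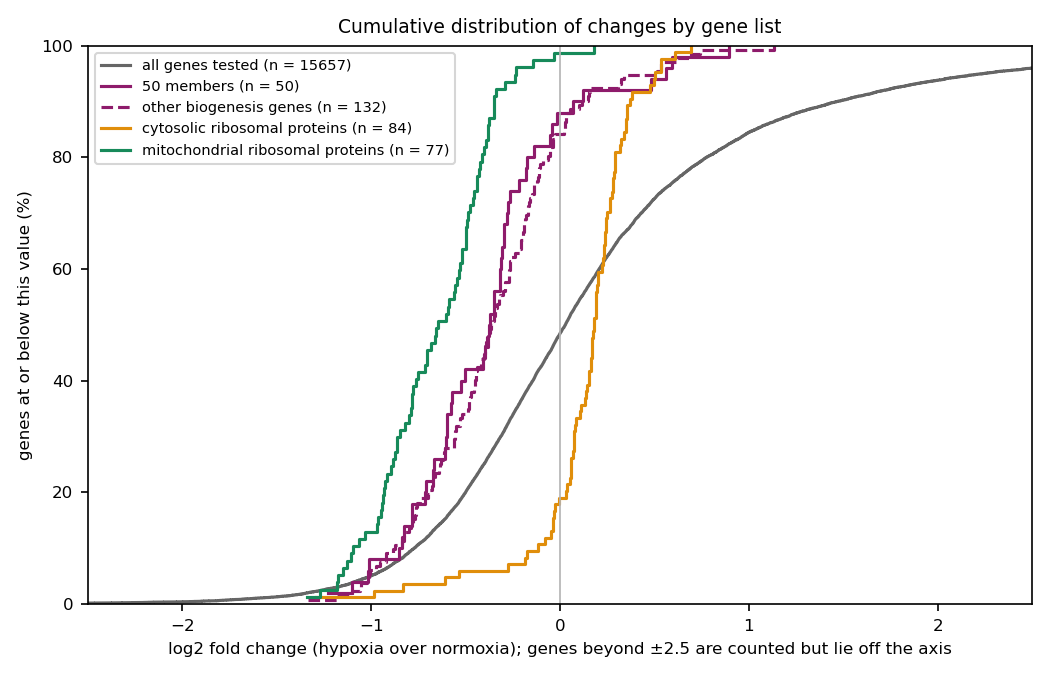
Cumulative distribution of the log2 fold change (hypoxia over normoxia, horizontal axis) as the percentage of genes at or below each value (vertical axis), for all genes tested, the 50 genes, the 132 other biogenesis genes, and the cytosolic and mitochondrial ribosomal protein genes. The curves of the 50 and of the 132 genes run close together, with medians of -0.37 and -0.36, between those of the mitochondrial (-0.65) and cytosolic (0.18) ribosomal proteins.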

How the data were processed

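Total RNA of T47D cells was made into stranded mRNA libraries and sequenced on Illumina HiSeq. The authors checked reads with FastQC 0.11.5, removed adapters with Skewer, aligned them to hg19 with STAR 2.5.2a and took counts over RefSeq genes from featureCounts 1.5.1, with versions as in the submitters' processing notes. The deposited values are those counts, 1 file per library and not normalized. How strand and multiply matching reads were handled is not given in the sources used here. The length column of the deposited files, the union of a gene's exons, served for levels per kilobase only.

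Counts were analysed with R 4.3.3 and edgeR 4.0.16. Genes were kept by filterByExpr (minimum count 10, minimum total count 15) and the 15657 kept entered a quasi-likelihood fit of all 6 libraries. It used TMM factors, had condition as its single term, and was adjusted by Benjamini-Hochberg over all those genes at 0.05. The exact test of edgeR, named by the study, was among the alternatives, with DESeq2 1.42.0, 3 other scalings, 2 other filters, the replicate block, and fits without each library or each replicate number. The test was tried on simulated counts first. Same-numbered libraries deviated together from their group means (correlations across genes of 0.338, 0.422 and 0.575), so the number was also used as a block. No pair of libraries within a group differed by less than sampling noise (chi-square per degree of freedom of 6.09 or more). Counting intervals are not given, because the spread between libraries exceeds counting error at 32989104 counts or more per library.

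The 50 genes and all lists were chosen with earlier results of these data known. Each of the 50 is named. Those given in full are the 2 with the smallest p in each role, those that passed against the direction of their role, and those that share exon bases with another gene; of the other biogenesis genes, the 3 with the smallest p each way with a mean of at least 100 counts. POLR1C, RRN3, NPM1 and other genes given beyond that, and the pairs for ratios, were chosen after their values were seen. Transcripts of ribosomal RNA genes were not analysed here, and the summed level of leukocyte markers is not reported here. Plots were drawn with matplotlib 3.10.9.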

Additional observations from a re-analysis of the deposited data

How the results depend on the processing

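With upper-quartile factors, 21 of the 50 genes were lower (median log2 fold change -0.21) and 50 of the 132 other biogenesis genes (median -0.20), in place of 32 and 78, and 64.5% of all calls were increases, against 51.1% with TMM. In fits lacking 1 library or both of 1 number, the 50 genes gave 16 to 35 lower and 2 to 6 higher calls and a median of -0.46 to -0.28, the other biogenesis genes 39 to 81 lower and 4 to 16 higher calls and a median of -0.43 to -0.27, and all genes 2191 to 5506 lower and 2648 to 5751 higher calls. The fewest of these calls came without both libraries numbered 1, which left 2 libraries per group, and the 16 higher calls among other biogenesis genes came without both numbered 3. Of the 32 genes that fell, 24 were called lower in each fit without 1 library, with 3 of the 4 that rose called higher. In each fit without 1 replicate number these were 16 and 2, with TAF1A and NOB1 lost. The replicate block gave 36 lower and 4 higher calls, adding POLR1C, FBL, NHP2 and LYAR, and it changed no other call among the 50 genes. Its calls over all genes also rose, to 35.2% lower and 36.6% higher. The exact test changed no call among them, and DESeq2 added POLR1C (adjusted p = 0.0481). Only genes near 0 turned in sign: with upper-quartile factors POLR1E, PES1, DDX18 and DDX21 came to 0.11, 0.12, 0.14 and 0.025, with library totals POLR1E, PES1 and DDX18 to 0.067, 0.076 and 0.10, and with genes of a mean of at least 100 counts to 0.021, 0.030 and 0.058. With libraries left out, POLR1E ranged from -0.21 to 0.12, RRN3 from -0.048 to 0.21, PES1 from -0.18 to 0.12 and DDX18 from -0.10 to 0.10. Over the named genes, 849 of 952 values under the alternatives kept direction and side of the threshold, 68 lost it, 16 gained it and 19 turned. Counts per gene give neither transcript isoforms nor amounts per cell.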

Other observations

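Most small nucleolar RNAs are released from introns of host genes, some of which make no protein. Of 20 noncoding snoRNA host genes tested, 10 rose in hypoxia and 5 fell (30.4% and 29.1% of all genes), with a median log2 fold change of 0.18. ZFAS1 rose from 136 ± 13.7 CPM (SD, n = 3) to 385 ± 75.1 CPM (log2 fold change 1.495, standard error 0.15, adjusted p = 1.93e-04) and GAS5 from 159.9 ± 16.9 CPM (SD, n = 3) to 397 ± 60.2 CPM (log2 fold change 1.31, standard error 0.13, adjusted p = 1.76e-04), while DANCR fell from 91.8 ± 6.15 CPM (SD, n = 3) to 38.7 ± 1.14 CPM (log2 fold change -1.24, standard error 0.082, adjusted p = 4.56e-05) and SNHG3 from 97.9 ± 20.1 CPM (SD, n = 3) to 38.4 ± 1.76 CPM (log2 fold change -1.35, standard error 0.14, adjusted p = 2.19e-04). The genes named here were picked with their values in view. The median of the list stayed above 0 under each scaling. Of the 7 own subunits of RNA polymerase II, 6 fell and the largest, POLR2A, rose from 421 ± 13.2 CPM (SD, n = 3) to 509 ± 9.99 CPM (log2 fold change 0.27, standard error 0.068, adjusted p = 0.00975). POLR3G, a subunit of RNA polymerase III, fell from 13.8 ± 2.49 CPM (SD, n = 3) to 3.90 ± 0.493 CPM (log2 fold change -1.82, standard error 0.17, adjusted p = 1.57e-04). POLR3GL, which can take its place, was also present in these cells, at 16.7 ± 2.66 CPM (SD, n = 3) in normoxia and 19.8 ± 1.19 CPM in hypoxia. Its log2 fold change of 0.24 did not pass (adjusted p = 0.147).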
